A study of Mus musculus with 3 samples.

Results

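The 8 genes described here act in oxidative and conjugating metabolism and were measured in 3 cultures of mouse ocular pigment epithelium: the aldehyde oxidase genes Aox1 and Aox3, the methyltransferase gene Inmt, the flavin-containing monooxygenase genes Fmo1, Fmo2 and Fmo5, the cytochrome P450 gene Cyp1b1 and the epoxide hydrolase gene Ephx1. They are 8 of the 18193 genes named on the array, and 16 of its 45037 non-control probe sets belong to them. The set was chosen by the signals of these same arrays, because Aox3, Inmt and Fmo2 were far highest in the iris culture, so the size and direction of those 3 differences are a description and carry no test. The name of the group, high in iris, held for 3 of the 8 genes only. Aox1, Fmo1 and Ephx1 were within 2-fold between all 3 cultures, and Fmo5 was too dim to be compared. By the probe set that represents it, Cyp1b1 was within 2-fold between iris and each other culture. A second Cyp1b1 probe set was 3.28-fold higher in the iris than in the ciliary body culture.

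The 3 cultures were iris pigment epithelium (IPE), retinal pigment epithelium (RPE) and ciliary body pigment epithelium (CBPE), each grown from eyes of adult C57BL/6 mice aged 6 to 8 weeks and hybridised to 1 array. IPE and CBPE were freed with Dispase and DNase I and grown in RPMI 1640 with 10% serum, whereas RPE was freed with trypsin and grown in DMEM with 20% serum, so medium, enzyme and tissue cannot be told apart between IPE and RPE. All 3 were moved to medium without serum overnight before RNA was taken, and the labels give a culture time of 14 days for RPE and CBPE only. Cytokeratin-positive cells were above 99% in IPE and above 95% in RPE and CBPE, as the labels state them. With 1 array per culture there is no replicate error and no p-value: every value is a single measurement on the linear, scaled intensity scale of the deposited table.

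Aldehyde oxidases are enzymes that carry a molybdenum cofactor, FAD and iron-sulfur clusters, and oxidise aldehydes and nitrogen heterocycles while releasing reactive oxygen. Flavin-containing monooxygenases add oxygen to soft nucleophilic nitrogen and sulfur atoms, and P450 enzymes such as that of Cyp1b1 oxidise steroids, retinoids and polycyclic aromatic hydrocarbons. Inmt encodes a methyltransferase of indoleamines and thioethers, and Ephx1 the microsomal hydrolase that opens reactive epoxides. In the eye, CYP1B1 is known in humans as a gene of congenital glaucoma, a disease of the anterior segment.

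RefSeq promoters (build GRCm38.p6, 250 bases before to 50 after a gene's start) were found for 7 of the 8 genes, and 4 are shown. Aox3, Inmt and Fmo2 are shown because they shared the iris-high pattern, and Aox1 because it is the gene next to Aox3 on chromosome 1 and did not share its pattern. Capitals mark 2 of the 5 motifs searched on both strands. The first is GCGTG, the core that the aryl hydrocarbon receptor binds, or CACGC, its reverse complement. The second is TATAAA, the letters of the TATA box, and whether a match acts as a TATA box was not tested. The Aox3 promoter is chr1:58112886-58113185 on the + strand, that of Inmt chr6:55174941-55175240 on the - strand, that of Fmo2 chr1:162898709-162899008 on the - strand and that of Aox1 chr1:58029719-58030018 on the + strand.
Aox3: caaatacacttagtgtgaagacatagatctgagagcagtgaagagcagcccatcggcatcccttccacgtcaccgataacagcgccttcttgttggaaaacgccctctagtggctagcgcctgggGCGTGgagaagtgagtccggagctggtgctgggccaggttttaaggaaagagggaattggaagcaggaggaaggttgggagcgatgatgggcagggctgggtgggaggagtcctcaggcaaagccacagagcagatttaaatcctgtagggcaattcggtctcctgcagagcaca
Inmt: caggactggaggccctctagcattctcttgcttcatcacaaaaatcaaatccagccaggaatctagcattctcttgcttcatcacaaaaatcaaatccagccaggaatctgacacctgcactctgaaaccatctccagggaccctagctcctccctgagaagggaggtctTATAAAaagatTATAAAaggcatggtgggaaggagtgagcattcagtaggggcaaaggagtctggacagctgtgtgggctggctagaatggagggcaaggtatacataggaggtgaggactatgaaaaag
Fmo2: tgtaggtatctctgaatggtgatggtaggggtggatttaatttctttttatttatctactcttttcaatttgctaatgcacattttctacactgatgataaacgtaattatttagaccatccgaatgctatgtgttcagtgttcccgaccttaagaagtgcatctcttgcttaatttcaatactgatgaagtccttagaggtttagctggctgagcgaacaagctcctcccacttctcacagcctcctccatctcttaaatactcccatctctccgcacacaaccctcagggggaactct
Aox1: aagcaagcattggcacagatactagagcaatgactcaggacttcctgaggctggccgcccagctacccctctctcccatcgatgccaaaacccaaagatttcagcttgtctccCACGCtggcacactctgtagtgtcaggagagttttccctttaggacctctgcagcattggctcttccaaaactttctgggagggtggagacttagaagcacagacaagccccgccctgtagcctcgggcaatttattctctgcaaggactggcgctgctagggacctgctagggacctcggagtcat

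The 3 promoters of the iris-high genes held no motif in common among those searched. GCGTG was found once in Aox3, 125 bases before the start, written as position -125, once in Aox1 at -137 and once in Cyp1b1 at -76, and in none of the windows of Inmt, Fmo2, Fmo5 and Ephx1. It is in 32.4% of all 32851 promoters. TATAAA, in 13.6% of all promoters, was found at -80 and -69 in Inmt, at -214 in Ephx1 and at -195 in Fmo5. The electrophile response element TGACNNNGC, in 12.4% of promoters, and the E-boxes CATGTG and CACGTG, in 14.2% and 7.15%, of which CACGTG reads the same on both strands, were in none of the 7 genes' windows. The matches shown do not overlap. Base composition differed: 55.0% of the Aox3 window was G or C with 10 CG pairs, against 47.7% and 0 in Inmt, 41.3% and 5 in Fmo2, and a median of 52.7% and 7 over all promoters. A second Fmo2 start in the table, at chr1:162898444-162898743, held none of the motifs either.

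The Inmt promoter carries a tandem repeat, shown as 1 copy because no other promoter of the group has one as long. The first copy starts at -235 and the second at -189, directly after it, each of 46 bases, and an exact repeat of that length is in 0.25% of all promoters.
Inmt repeat unit: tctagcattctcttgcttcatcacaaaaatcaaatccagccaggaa

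Each array had been scaled to the same trimmed mean of 100.001, and a floor was set at its median signal over probe sets other than controls: 14.5 in IPE, 16.8 in RPE and 17.3 in CBPE. Controls for bacterial transcripts absent from the cells reached 7.9, 16.6 and 20.2, so a fold against a dim CBPE signal is given over 20.2. The hybridisation controls had geometric means of 1239, 1941 and 3192, and the 3′ to 5′ signal ratio of Actb was 1.50 in IPE, 2.25 in RPE and 2.26 in CBPE, so the IPE array was lowest on both measures. Their part in the results was not tested. Among pigment epithelium markers 12 of 14 were above the floor in IPE, 11 in RPE and 10 in CBPE, with summed signals of 6248, 2114 and 1320. Of those measured, 9 of 12 exceeded RPE by 2-fold or more in IPE, and 9 of 13 exceeded CBPE while 2 were lower. Cdh1 was under the floor on every array, and Krt8 read 17.4 in IPE, 26.2 in RPE and 95.3 in CBPE. Of the retinal pigment epithelium markers, Rpe65, Lrat, Rgr, Best1 and Ttr were under the floor on the RPE array, and the 8 on that list summed to 344.8 in IPE, 174.0 in RPE and 295.7 in CBPE.

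Of the aldehyde oxidase genes, Aox3 was high in IPE and its neighbour Aox1 was not. Aox3 had a signal of 1000.0 in IPE, against 20.2 in RPE and 27.5 in CBPE. That is 49.5-fold and 36.4-fold, or 5.63 and 5.18 on the log2 scale, and both low signals lay close to their floors, so the folds are imprecise. Aox1 had a signal of 116.5 in IPE, 116.5 in RPE and 109.2 in CBPE, log2 differences of 0.00 and 0.09 for IPE over RPE and over CBPE. Both genes are represented by 1 probe set each, so neither value could be checked within its array. In the RefSeq order the aldehyde oxidase genes Aox1, Aox3, Aox4 and Aox2 follow each other on chromosome 1. Aox4 was under the floor on all 3 arrays, with signals of 0.6, 2.2 and 12.0, and Aox2 was not analysed here. The iris-high signal in this gene row was therefore seen for Aox3 and not for Aox1, and Aox4 could not be compared.

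Inmt, the methyltransferase gene, was also high in IPE. Its single probe set read 5482.7 in IPE, 149.2 in RPE and 200.8 in CBPE, all well over the floors. The fold was 36.7 over RPE and 27.3 over CBPE, or 5.20 and 4.77 on the log2 scale. RPE lay 1.35-fold below CBPE, a log2 difference of -0.43, beside a spread of 0.289 between probe sets of 1 gene in that comparison. This pooled SD of the log2 difference between probe sets of a gene is the one error that could be measured. It was 0.455 for IPE over RPE across 1773 genes and 0.495 for IPE over CBPE across 1666 genes, and says nothing of how repeat cultures or arrays would vary.

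The monooxygenase genes divided as the oxidases did. Fmo2 was read by 5 probe sets, of which 4 were above the floor in IPE. The one that represents the gene had 578.7 in IPE, 18.2 in RPE and 7.9 in CBPE, 31.8-fold over RPE and at least 28.6-fold over CBPE. Fmo2 in a further probe set had 481.2 in IPE, 11.8 in RPE and 10.5 in CBPE, at least 28.6-fold and at least 23.8-fold. The remaining pair read 207.6 and 189.5 in IPE and were under the floor in both other cultures, at least 12.4-fold and 11.3-fold over RPE and at least 10.3-fold and 9.38-fold over CBPE. All 4 placed IPE highest, and the size of their bounds was limited by how bright each probe set was in IPE. The fifth was under the floor everywhere, at 9.3, 10.0 and 3.4.

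Fmo1, the gene next to Fmo2 on chromosome 1 in the RefSeq order, was level. Its signal was 570.8 in IPE, 509.5 in RPE and 467.6 in CBPE, so IPE was 1.12-fold over RPE and 1.22-fold over CBPE, log2 differences of 0.16 and 0.29 that are smaller than the spread between probe sets. Fmo5, whose enzyme is known for Baeyer-Villiger oxidation, was near or under the floor in all 3 probe sets. The one that represents it read 19.7 in IPE, 6.7 in RPE and 25.4 in CBPE, so no difference could be read at this signal. Fmo4, on the other side of Fmo1, was above the floor in RPE alone, at 17.2, against 6.5 in IPE and 1.9 in CBPE. The other Fmo genes were not analysed here.

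Cyp1b1 had another order, with CBPE lowest. Its brightest probe set read 1361.1 in IPE, 1436.1 in RPE and 702.4 in CBPE, and a second read 393.7, 250.5 and 120.1. RPE exceeded CBPE 2.04-fold and 2.09-fold in them, values closer than the spread between probe sets. IPE exceeded CBPE 1.94-fold by the first, just under the 2-fold limit, and 3.28-fold by the second. IPE and RPE were not ordered: by the first, IPE was 1.06-fold lower than RPE, and by the second 1.57-fold higher, and the first turned to a log2 difference of 0.24 after quantile normalization. The third probe set was under the floor everywhere, at 2.8, 2.5 and 15.8. Ephx1 read 1776.7 in IPE, 2362.1 in RPE and 1944.4 in CBPE by its 1 probe set. RPE was 1.33-fold over IPE and 1.21-fold over CBPE, and IPE and CBPE were within 1.09-fold, an order that turned after quantile normalization, with a log2 difference of 0.33.

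**Figure D1:**
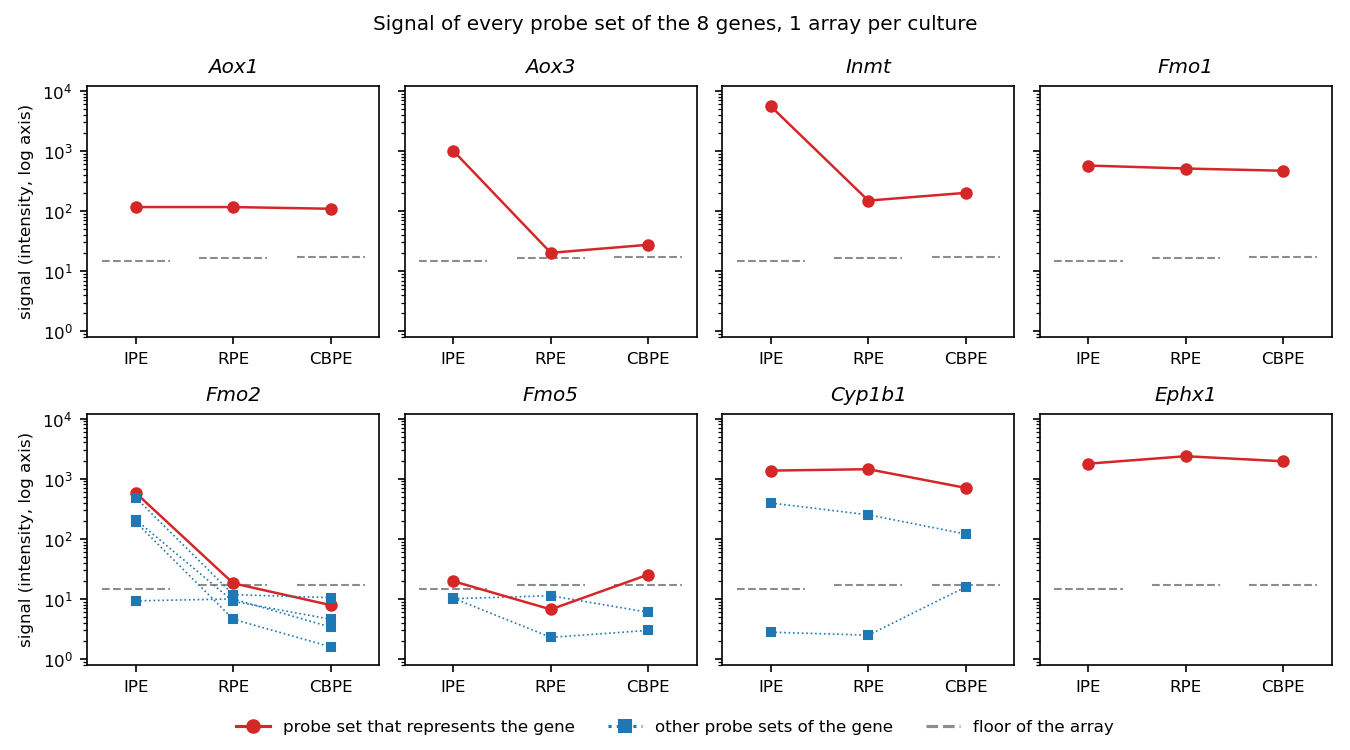
Signal of each of the 16 probe sets of the 8 genes on the IPE, RPE and CBPE arrays, on a log axis; red circles are the probe set that represents a gene, blue squares its others, and dashed lines each array's floor. Aox3, Inmt and 4 probe sets of Fmo2 have their highest point in IPE and lie near or under the floors, or for Inmt at 149.2 and 200.8, in the other cultures, while Aox1, Fmo1 and Ephx1 run nearly flat.

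Counted together at the 2-fold limit, Aox3, Inmt and Fmo2 exceeded both RPE and CBPE in IPE, 3 of 8 genes, and none of the 8 was lower in IPE than in either. Among 13345 genes above the floor on some array, 6.39% were higher in IPE than in both and 6.13% lower than in both. Over all genes, 10.5% of 12446 were higher and 9.87% lower in IPE than in RPE, and 12.5% of 12831 were higher and 11.8% lower in IPE than in CBPE. Every one of the 8 passed the floor somewhere, and 6 did on all 3 arrays. Their median log2 difference was 0.20 for IPE over RPE, beside -0.02 over all genes, and 0.62 for IPE over CBPE, beside -0.04. As the iris difference chose the genes, nothing is read from these counts, and both comparisons share the single IPE array. Between RPE and CBPE, 1 of the 8 genes, Cyp1b1, was at least 2-fold higher in RPE and none lower, where 3.75% of 12860 genes were higher and 4.26% lower.

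**Figure D2:**
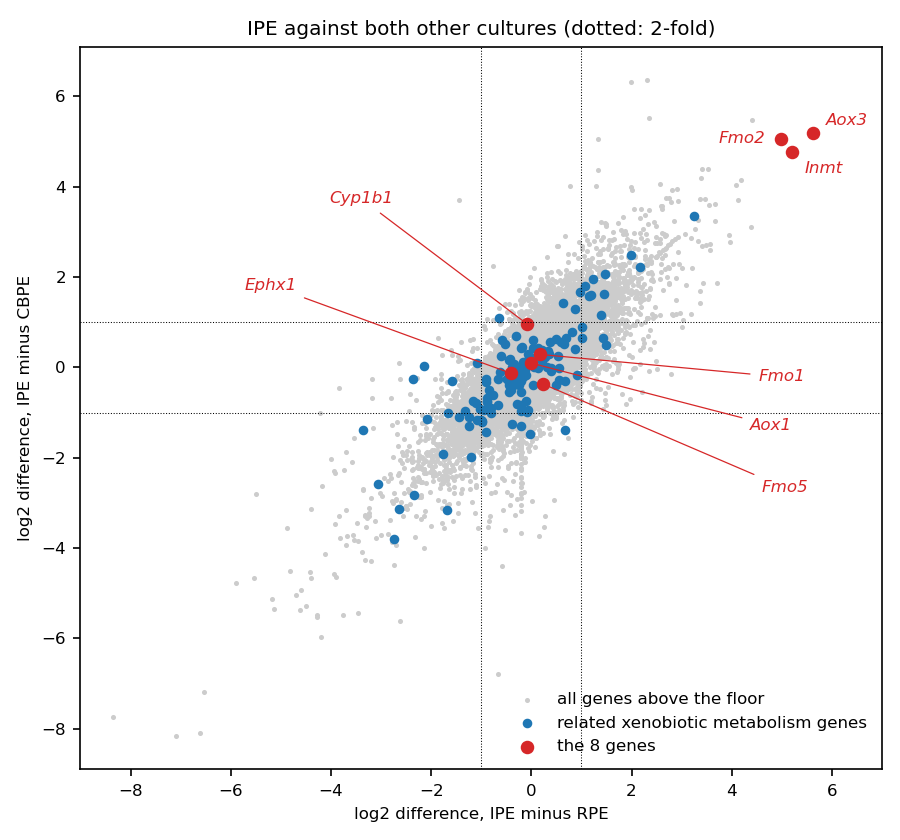
Log2 difference of IPE minus RPE (horizontal) against IPE minus CBPE (vertical) for all genes above the floor on at least 1 array (grey), the related genes (blue) and the 8 genes (red, named); dotted lines mark 2-fold, and both axes use the single IPE array, so a gene's values on them are not independent. Aox3, Inmt and Fmo2 lie at the upper right edge near 5 on both axes, and the other 5 lie in the central cloud.

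Markers of other cell types were looked at too. In RNA of whole cultures, fewer cells of a type and less RNA per cell cannot be told apart, for the 8 genes as for the markers. All 9 fibroblast markers were above the floor on every array, with a summed signal of 24405 in IPE, 32776 in RPE and 45227.5 in CBPE. Within that list, Dcn and Fap did not follow the sum: Dcn read 5566.0 in IPE, 2706.6 in RPE and 6162.7 in CBPE, and Fap read 364.8, 259.0 and 318.9. Pdgfra, a growth factor receptor gene of mesenchymal cells, was also higher in IPE, with 2020.3 in IPE against 958.1 in RPE and 776.6 in CBPE, the same direction in 3 of 3 probe sets. Leukocyte markers summed to 266.3 in IPE, 465.4 in RPE and 1963 in CBPE, and Ptprc was under the floor on all 3 arrays. Endothelial markers summed to 1165 in IPE, 546.5 in RPE and 1707 in CBPE, most of it Emcn and Eng in IPE, where Pecam1, Cdh5 and Vwf were under the floor. Smooth muscle and pericyte markers summed to 9765 in IPE, 16624 in RPE and 25671.5 in CBPE, with Myh11 and Des highest in IPE, and the glial markers to 2707 in IPE, 825.5 in RPE and 386.9 in CBPE, most of it Glul. Melanocyte and Schwann markers summed to 130.4 in IPE, 67.3 in RPE and 150.4 in CBPE, a sum that hides members in opposite directions. Sox10 and Ednrb were above the floor in IPE alone, with signals of 25.7 and 33.6. Mbp and Kit were highest in CBPE, with 57.9 and 36.6 there, and S100b was within 2-fold between cultures. Skeletal muscle markers, 9 in all, summed to 84.8 in IPE, 1505 in RPE and 1476 in CBPE. None of the 4 adipocyte markers measured was above the floor. The sums of pigment epithelium, retinal and glial markers were highest in IPE, as Aox3, Inmt and Fmo2 were, and their part in the result was not tested.

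The wider set of related genes did not follow the 3 iris-high ones. Without the 8 genes, 175 of 196 listed genes were on the array under a single name. Of 128 measured in IPE and RPE, 14 (10.9%) passed 2-fold toward IPE and 22 (17.2%) toward RPE, with a median log2 difference of -0.24. Of 125 measured in IPE and CBPE, 14 (11.2%) were higher and 23 (18.4%) lower, with a median of -0.11. Against the shares over all genes given above, the share of higher genes was close to the background and that of lower genes above it. After scaling to equal medians, which raised the median of all genes by 0.21 and 0.25 on the log2 scale in the 2 comparisons, the counts were 19 higher and 16 lower in IPE against RPE, and 16 higher and 13 lower against CBPE. Over all genes, 15.4% were then higher and 6.28% lower in IPE against RPE, and 18.5% higher and 7.36% lower against CBPE.

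Enzyme and cofactor genes nearest to the aldehyde oxidases were mostly within 2-fold between cultures. Xdh, the xanthine oxidoreductase gene, read 114.9 in IPE, 92.2 in RPE and 114.2 in CBPE, and Suox, the sulfite oxidase gene, read 106.2, 102.5 and 92.3. Of 5 molybdenum cofactor genes, 1 was higher in IPE, which cannot be told from the 10.5% and 12.5% of all genes higher than in RPE and CBPE. It was Gphn, which encodes gephyrin and acts in the last steps of cofactor synthesis. Gphn stood at 150.9 in IPE, against 55.4 in RPE and 48.7 in CBPE, 2.72-fold and 3.10-fold higher. All 3 of its probe sets had that direction, with log2 differences from 0.37 to 2.19 over RPE and from 0.55 to 1.75 over CBPE, so not all passed 2-fold. Mocs1, Mocs2, Mocs3 and Mocos were within 2-fold. By the probe set that represents it, Mocs2 was 1.91-fold and 1.94-fold lower in IPE than in RPE and CBPE, just under the limit. The other probe set of Mocs2 went the opposite way. Of the genes that pass electrons to P450 enzymes, Cyb5r1 was 5.08-fold and 7.10-fold lower in IPE than in RPE and CBPE, at 176.3 against 895.2 and 1252.1, and Cyb5a, for cytochrome b5, 2.72-fold and 2.14-fold lower. Cyb5b was at 835.0 in IPE, against 414.4 in RPE and 452.2 in CBPE. Cyb5r3 did not share the low signal of Cyb5r1. By the probe set that represents it, its IPE signal of 2100.6 was 1.09-fold over RPE and 1.01-fold under CBPE.

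Other methyltransferases did not share the pattern of Inmt. Nnmt, which methylates nicotinamide, was 2.51-fold lower in IPE than in RPE, at 363.8 against 913.7, and at 715.7 in CBPE. Of 6 methyltransferase genes measured besides Inmt, Nnmt included, none passed 2-fold toward IPE in either comparison. Over all genes, 10.5% were higher in IPE than in RPE and 12.5% than in CBPE. A count of none in 6 cannot be told from these shares. Among P450 genes of families 1 to 4, 12 of the 24 on the array were measured in either comparison, Cyp1b1 included. In each, 1 of the 12 was higher in IPE, near the shares over all genes. Cyp2d22 was 2.80-fold higher in IPE than in RPE, at 94.0 against 33.6, and Cyp4f13 at least 2.30-fold higher than in CBPE. Of the epoxide hydrolases, Ephx2, the soluble enzyme, read 178.2 in IPE, 88.8 in RPE and 113.3 in CBPE, 2.01-fold and 1.57-fold.

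The aryl hydrocarbon receptor, a ligand-activated transcription factor that pairs with Arnt, is the textbook inducer of Cyp1b1. Ahr itself read 462.2 in IPE, 530.4 in RPE and 344.1 in CBPE. Its probe sets disagreed for IPE over RPE, with log2 differences of -0.20 and 1.08. Of 7 genes of its pathway measured besides Cyp1b1, 3 were higher and 2 lower in IPE in each comparison. Over all genes, 10.5% were higher and 9.87% lower in IPE than in RPE, and 12.5% and 11.8% than in CBPE. Tiparp, a repressor of the receptor, exceeded RPE 2.76-fold and CBPE 4.17-fold in IPE, at 656.4 against 237.8 and 157.4, in 3 of 3 probe sets. Ahrr, another repressor, was 2.27-fold higher in IPE than in RPE and at least 2.62-fold higher than in CBPE, at 52.9 against 23.3 and 1.1. Nqo1, the quinone reductase gene, was 4.21-fold and 2.22-fold lower in IPE, at 113.8 against 479.1 and 252.3, and Aldh3a1 was at least 10.3-fold and at least 2.60-fold lower, at 8.3 against 149.9 and 37.7. Cyp1a1 was under the floor everywhere. Arnt read 329.1 in IPE, 122.8 in RPE and 209.4 in CBPE, with 1 of its 5 probe sets going the other way, and Arnt2 read 328.0, 166.3 and 102.5. A further probe set of Arnt2 had a log2 difference of -1.06 for IPE over RPE, the opposite direction.

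Among conjugating enzymes and carriers, genes were found in both directions. Of 21 glutathione transferase genes measured, 1 was higher and 4 lower in IPE than in RPE. Gstm1 was 2.21-fold higher, at 1428.3 against 646.1, and Gstm5 3.42-fold lower, at 970.6 against 3317.0. In CBPE they were at 480.5 and 3682.9, with 1 of 4 probe sets of Gstm1 going the other way against CBPE, and probe sets of the close Gstm paralogs may share transcripts. Papss2, which makes the sulfate donor, exceeded RPE 2.09-fold and CBPE 3.50-fold in IPE. Of 6 sulfo-, glucuronosyl- and acetyltransferase genes measured, 1 was higher in IPE than in RPE and none lower, and 1 was higher and 1 lower in IPE than in CBPE, the last being the acetyltransferase gene Nat2 at 95.4 against 217.8. Of 13 transporter genes measured in IPE and RPE, 2 were higher and none lower in IPE, and of 11 measured in IPE and CBPE, 2 were higher and Slco4a1 was lower, at 16.9 against 47.3. Over all genes the shares were those given above, 10.5% higher and 9.87% lower against RPE and 12.5% and 11.8% against CBPE, and 1 of 6 genes cannot be told from them. The efflux pump gene Abcb1a was 9.52-fold higher in IPE than in RPE and at least 10.0-fold higher than in CBPE, at 202.8 against 21.3 and 19.8, in 2 of 2 probe sets, and Abcc4 was 3.99-fold and 5.63-fold higher.

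Dehydrogenases and reductases of aldehydes and ketones had members in both directions. The counts stand beside 10.5% of all genes higher and 9.87% lower in IPE than in RPE, and 12.5% and 11.8% than in CBPE. Of 19 alcohol and aldehyde dehydrogenase genes measured in IPE and RPE, 1 was higher and 7 lower in IPE, and of 20 measured in IPE and CBPE, 2 were higher and 7 lower. Adhfe1 was 4.51-fold and 4.64-fold higher in IPE, at 199.5 against 44.2 in RPE and 43.0 in CBPE. A second measured probe set of Adhfe1 had log2 differences of 1.38 over RPE and 0.78 over CBPE, the latter under 2-fold. Aldh1l2, a mitochondrial folate enzyme gene, was 6.27-fold and 8.85-fold lower in IPE, at 48.0 against 300.8 and 424.8. Aldh1a1, which makes retinoic acid from retinaldehyde, read 523.6 in IPE, 680.1 in RPE and 1240.7 in CBPE, and its paralog Aldh1a7 read 30.8, 99.0 and 274.9. Of 18 aldo-keto and carbonyl reductase genes, 1 was higher and 5 lower in IPE than in RPE, and of 17 measured in IPE and CBPE, 2 were higher and 4 lower. Hsd11b1, which activates glucocorticoids, exceeded RPE 2.60-fold and CBPE 2.22-fold in IPE. Nr3c1, the glucocorticoid receptor gene in the list of xenobiotic-sensing nuclear receptors, was 2.33-fold and 3.89-fold higher, at 946.1 against 405.5 and 243.0, although 1 of its 6 probe sets went the other way in the comparison with CBPE. Of 7 carboxylesterase and amine oxidase genes measured in IPE and RPE, none was higher and 3 were lower in IPE. Of 8 measured in IPE and CBPE, none was higher and 3 were lower. Among them Aoc3 was 6.66-fold and 14.0-fold lower in IPE, at 37.1 against 247.2 and 520.4.

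**Figure D3:**
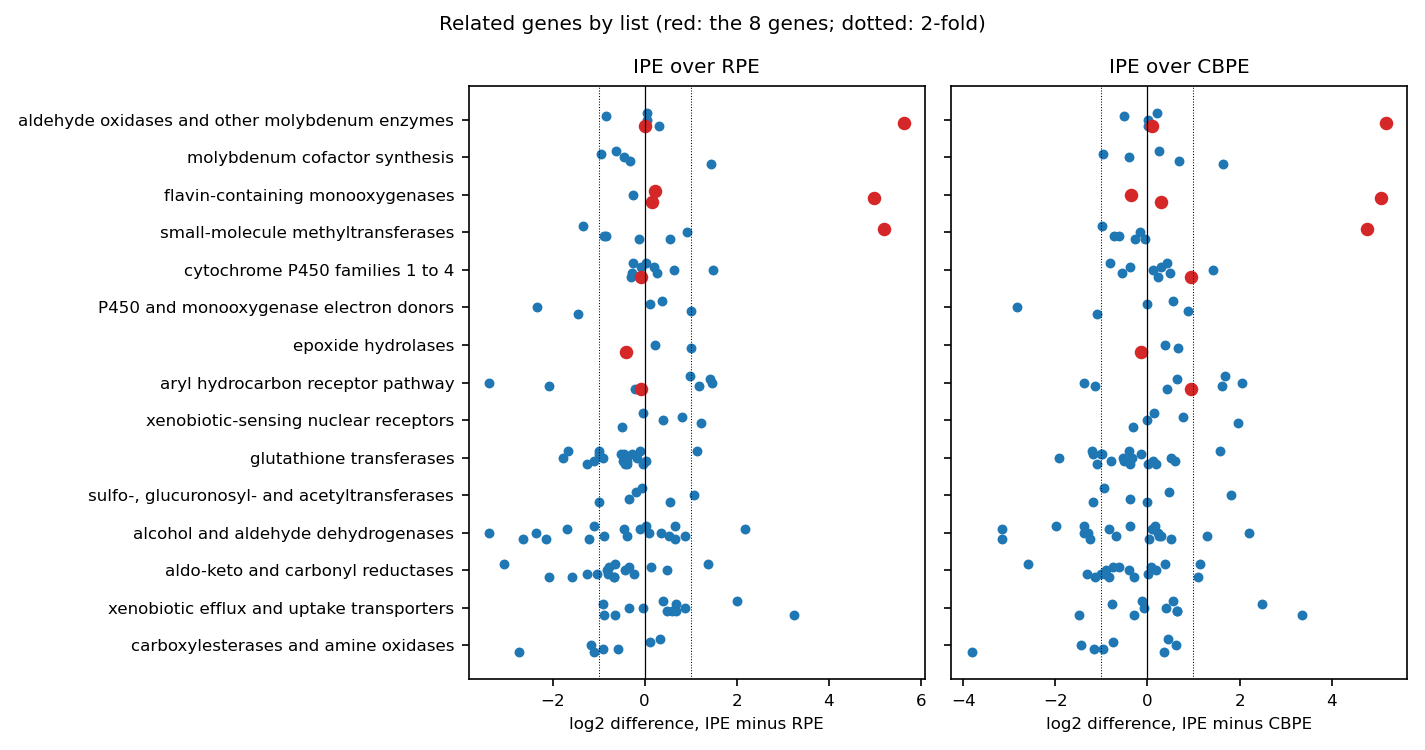
Log2 difference of IPE minus RPE (left) and IPE minus CBPE (right) for each gene measured in the 15 lists of related genes, with the 8 genes in red and the 2-fold limits dotted. The red points of Aox3, Fmo2 and Inmt stand near 5 in the lists of molybdenum enzymes, monooxygenases and methyltransferases, where no blue point passes 2-fold toward IPE. In the list of monooxygenases the only blue point is the dim Fmo4 on the left, with 0 on the right, so relatives of Fmo2 could not be compared.

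The genes whose pattern over the 3 arrays lay nearest to the mean of Aox3, Inmt and Fmo2 were taken by the distance between centred log2 signals, among 6847 other genes with a signal of at least 100 in IPE. Signals under a floor were set to it, as for Tnfrsf19, Zic1 and Prune2 in RPE and CBPE and Fmo2 in CBPE, so the distances of these genes are not exact and their order is not settled. The smallest distance was that of Tnfrsf19, a TNF receptor family gene, at 0.811, with 305.9 in IPE, 1.9 in RPE and 12.9 in CBPE. Its 3 probe sets had log2 differences from 1.41 to 4.19 for IPE over RPE and from 0.99 to 4.14 over CBPE. Zic1, a zinc finger transcription factor gene, followed at 0.892, with 285.2, 3.9 and 4.0. Dio2, which activates thyroid hormone, lay at 0.957, with 3432.2 in IPE, 161.1 in RPE and 76.8 in CBPE. Arhgap20, Prune2 and Heph lay at 1.01, 1.23 and 1.26. Of Prune2's 3 measured probe sets 1 went the other way. Of the 8 genes, Aox1, Fmo1, Fmo5, Cyp1b1 and Ephx1 lay between 3.95 and 4.43 from the mean that the other 3 define.

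Aox3, Inmt and Fmo2 kept 2-fold or more toward IPE, over RPE and over CBPE, in all 7 alternatives for scaling, floor and probe sets. Inmt ranged from 5.20 to 5.83 for IPE over RPE. Aox3 and Fmo2 had their smallest differences, 3.32 and 2.53, with a fixed floor of 100, which both other cultures lie under. Cyp1b1 passed 2-fold for IPE over CBPE in 2 of the 7, quantile normalization and equal medians.

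**Figure D4:**
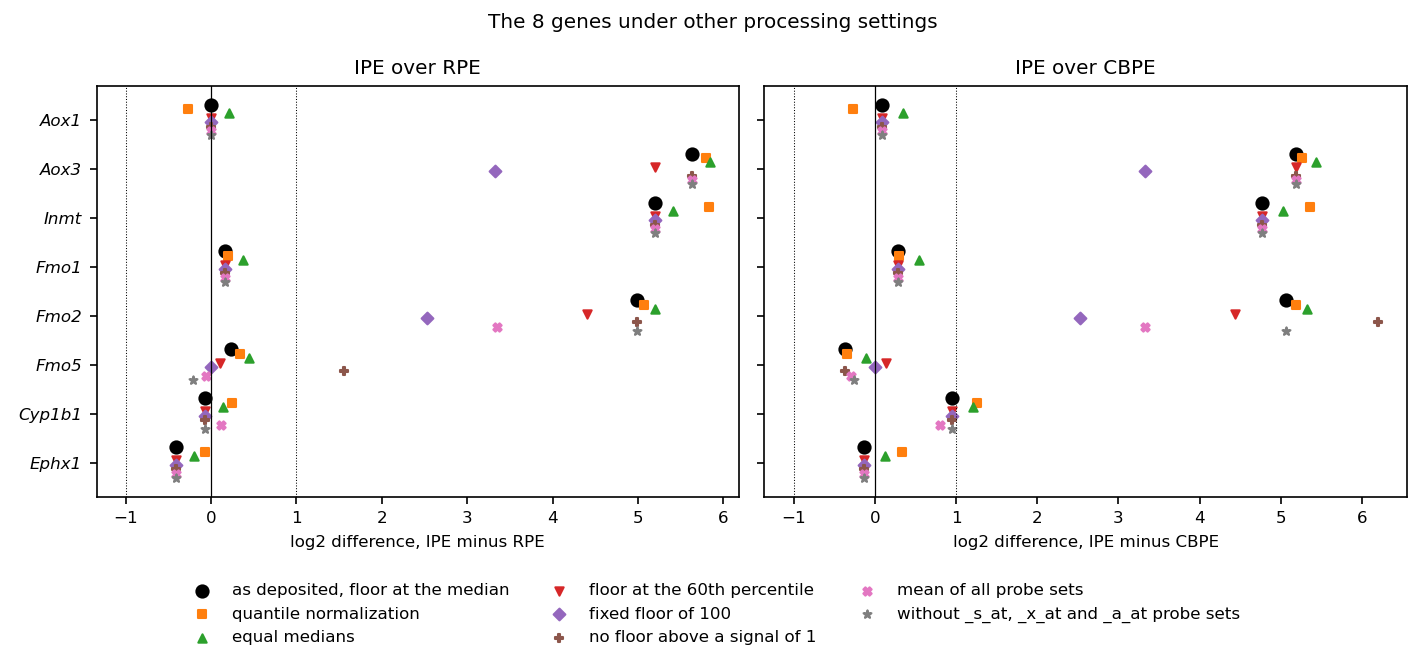
Log2 difference of the 8 genes for IPE minus RPE (left) and IPE minus CBPE (right) as deposited (black) and under 7 other settings (coloured markers), with 2-fold dotted. Every marker of Aox3, Inmt and Fmo2 lies above 2 in both panels, and those of the other 5 genes lie around 0, apart from Cyp1b1 near 1 in the right panel and 1 Fmo5 marker, without a floor, at 1.56 in the left.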

How the data were processed

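RNA of 3 cultures was hybridised to 1 biotin-labelled array each, per the labels' protocols. The deposited table gives a linear intensity for each of 45101 probe sets, 64 of them controls, on every array. How the authors summarised probes, and with which software, is not given in the sources used here. Their equal trimmed mean shows that the deposited intensities were scaled to a common target, and that scale was kept. Gene names came from the platform annotation of 2016, updated to RefSeq (GRCm38.p6): 34945 probe sets had 1 gene, 932 had several and 9160 were not listed, and the last 2 kinds were not named.

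Signals under an array's floor, its 50th percentile without controls, were set to it before log2. Of several probe sets, the one brightest on average over the arrays stands for its gene. A gene counts as different at 2-fold or more with at least 1 signal above the floor. Where the dim signal was not above the floor, or in CBPE not above 20.2, the fold is a lower bound. The number of arrays limits the precision, and no test was possible.

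The 8 genes, the lists of related genes and the markers were chosen with earlier results of these data known. Genes are named if they are among the 8, their direct relatives and cofactor genes, markers, or among the 6 nearest patterns. Also named are up to 5 per list and direction, by mean signal, that differ at least 2-fold in IPE from RPE or CBPE. The text gives a selection of these, and Cyb5r3 is named besides them for comparison with Cyb5r1. Alternatives covered scaling, floor, probe set rule and fold limit. Python 3.11.15, numpy 2.4.6, pandas 2.3.3 and matplotlib 3.10.9 were used.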

Additional observations from a re-analysis of the deposited data

How the results depend on the processing

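No paired analysis was possible because each culture has 1 array, and no replicate could be left out. The count of the 8 genes higher in IPE stayed at 3 to 4 in both comparisons under all 8 alternatives. For RPE over CBPE, the 1 higher gene became 0 with the 3-fold limit and when a gene's probe sets were averaged, and 2 higher with 1 lower without a floor above a signal of 1. The cause of these and the following changes was not tested where the setting does not itself remove or add genes.

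Related genes, given as 14 higher and 22 lower for IPE over RPE, 14 and 23 for IPE over CBPE and 8 and 6 for RPE over CBPE, moved most with the floor. The fixed floor of 100 gave 8 and 14, 8 and 16, and 2 and 2, and no floor above 1 gave 30 and 45, 27 and 41, and 30 and 22. The 3-fold limit gave 3 and 11, 9 and 7, and 4 and 1. Over all genes it gave 3.47% and 3.12%, 4.82% and 4.24%, and 0.731% and 1.14%. The floor at the 60th percentile gave 3 lower for RPE over CBPE, beside 3.28% of all genes. Leaving out probe sets that may match several transcripts gave 3 lower there and 15 lower for IPE over CBPE, beside 4.22% and 10.7%. Equal medians gave 13 lower for IPE over CBPE, beside 7.36% of all genes. Over all genes, 51.5% of the differences between IPE and RPE were toward IPE as deposited, 71.1% with equal medians and 42.0% after quantile normalization, and 51.5%, 71.5% and 41.7% between IPE and CBPE.

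Nqo2, at a log2 difference of -1.0 for IPE over CBPE, turned to 0.47 with the mean of all probe sets and 1.29 without probe sets that may match several transcripts, since its 3 probe sets disagree. Signal over background limits Aox3 and Fmo2 in RPE and CBPE, and Fmo5 everywhere. The 1 array per culture leaves the spread between cultures unmeasured.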
